A study of Mus musculus with 2 samples.

Results

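Keratins, cadherins and the markers used to follow epithelial and mesenchymal states were compared between control AML12 cells and AML12 cells made senescent with hydrogen peroxide. The 10 genes were taken by name (Cdh1, Cdh2, Epcam, Krt7, Krt8, Krt18, Krt19, Vim, Snai2 and Zeb1) from the 35275 genes of the count table, and all 10 were found. AML12 is an established hepatocyte line from the liver of a male CD-1 mouse aged 3 months, and it derives from a mouse that carried a human TGF-alpha transgene, which both groups share. Control cells were untreated. Senescent cells received peroxide at 1 mM for the opening day and 0.75 mM later, with 6 days of treatment, 1 h of exposure per day and 23 h of recovery in complete medium. That medium contained serum, insulin, transferrin, selenium and dexamethasone. RNA of 3 samples was pooled within each group and sequenced as 1 library per group, so no difference has a replicate check and no p-values are given, since a ratio here sets one library against another and not one condition against another. The control library held 28021941 reads on genes and the senescent library 25738075.

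Epithelial cells are built around keratin filaments, which are obligate heteropolymers of a type II chain (such as Krt7 or Krt8) and a type I chain (such as Krt18 or Krt19), and around E-cadherin (Cdh1), which joins neighbouring cells. Adult hepatocytes make mainly Krt8 and Krt18, whereas Krt7, Krt19 and the adhesion molecule Epcam mark bile duct cells and liver progenitors. In an epithelial-mesenchymal transition, E-cadherin and keratins give way to N-cadherin (Cdh2) and the filament protein vimentin (Vim) under repressors that include Slug (Snai2) and Zeb1, which bind E-boxes of the form CACCTG. Adult hepatocytes are known to carry both E- and N-cadherin.

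The sequences before the Krt8 and Krt18 genes are shown because these genes lie side by side and encode the paired filament chains, and that before Epcam because its transcript was nearly absent. They are from RefSeq on GRCm38.p6, whose promoter table matched 5 of the 10 genes (Epcam, Krt7, Krt8, Krt18 and Vim), and each is written 5′ to 3′ on the strand of its gene, with E-boxes (CANNTG, which reads the same on both strands) in capitals. Annotated exons were left out, which removed the E-box of the Krt7 window and the second E-box of the Krt8 window. The Krt8 stretch is chr15:102004483-102004592 (minus strand), the Krt18 stretch chr15:102027966-102028179 (plus strand) and the Epcam stretch chr17:87635729-87635978 (plus strand).
Krt8: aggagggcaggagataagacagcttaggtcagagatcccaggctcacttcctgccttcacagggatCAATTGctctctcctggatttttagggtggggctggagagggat
Krt18: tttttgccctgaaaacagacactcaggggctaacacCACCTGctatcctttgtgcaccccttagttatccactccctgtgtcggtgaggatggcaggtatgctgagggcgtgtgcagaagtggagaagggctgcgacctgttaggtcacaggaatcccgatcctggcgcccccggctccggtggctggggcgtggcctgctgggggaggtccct
Epcam: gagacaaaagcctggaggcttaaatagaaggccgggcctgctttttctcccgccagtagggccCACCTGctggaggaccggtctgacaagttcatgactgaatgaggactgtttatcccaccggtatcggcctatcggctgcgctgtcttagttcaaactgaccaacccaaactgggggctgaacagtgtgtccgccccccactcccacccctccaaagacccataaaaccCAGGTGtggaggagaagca

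In the full 250 bases before the start, the CACCTG form (read on either strand as CACCTG or CAGGTG) was found once for Krt18, at -214 to -209, once for Krt8, at -111 to -106, and once for Krt7, at -44 to -39. Epcam held 2 copies, at -187 to -182 and at -19 to -14. Vim held none. Of 32851 promoter windows of the same length, 17.2% held this form and 66.2% held any E-box. Krt7 also held 4 copies of the GC box GGGCGG (either strand), which 32.7% of windows held, and Vim held TATAAA at -32 to -27, found in 12.4% of windows on either strand. The AP-1 motif TGANTCA was found in none of the 5 windows and in 6.75% of all windows. Annotated exons covered all 250 bases of the Vim window and 205 bases of the Krt7 window. The TATAAA of Vim, the 4 GC boxes of Krt7 and the CACCTG copies of Krt7 and Krt8 lay in such exons. These matches describe letters only, and no binding was measured.

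Between the libraries, Krt8, Krt18 and Vim were 1.42-fold, 1.76-fold and 1.56-fold higher in the senescent library, and Krt7 was 2.70-fold lower. Cdh1 and Cdh2 were both lower by similar amounts, Krt19 was nearly level, Zeb1 was higher and Snai2 lower. Epcam had at most 1 read. After TMM scaling with edgeR, each gene was given its log2 ratio (senescent over control, prior count 1) and a 95% interval for counting error alone. Calls required a total of 10 reads or more, a ratio beyond 1.5 on the log2 scale and an interval without 0, and "rose" and "fell" are kept for genes past 1 on that scale. None of the 9 genes with enough reads was called higher and none was called lower, where 2.71% of the 14383 genes tested were called higher and 5.6% lower. At a size of 1 on the log2 scale, a 2-fold difference, 0 of the 9 were higher and 1 (Krt7) was lower, against 5.09% and 9.98% of all genes tested. The median log2 ratio of the 9 was -0.03, and that of all genes tested was -0.02. In RNA from whole cultures, fewer cells of a type and less RNA per cell cannot be told apart.

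**Figure D1:**
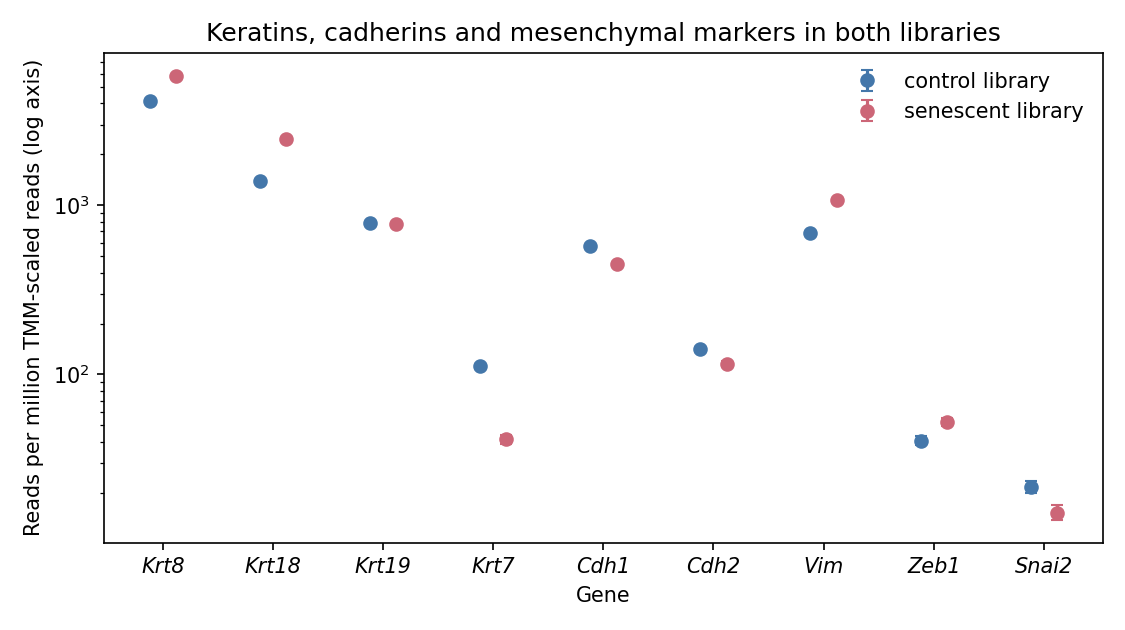
CPM, the read count scaled to library size with TMM (log axis), for the 9 genes with at least 10 reads, with 1 point per library and bars for the 95% Poisson interval, which the symbol hides for most genes. Krt8 stands highest in both libraries, at 4106 (control) and 5838 (senescent), and Krt7 has the widest gap between them, at 112 and 41.4.

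Krt8, the type II chain of hepatocyte filaments (ENSMUSG00000049382, chromosome 15 from 101996698 to 102004482, GRCm38), was read 119403 times in control and 144783 times in senescent AML12 cells. By reads it ranked 5 among all genes of either library. Its log2 ratio was 0.51 (95% interval 0.50 to 0.52), at percentile 82.6 of all genes tested. Krt18, its type I partner (ENSMUSG00000023043, chromosome 15 from 102028180 to 102032027), had 40512 control and 60941 senescent reads. By reads it ranked 40 in control and 16 in senescent cells. The log2 ratio, 0.82 (0.80 to 0.84), was the highest of the 9 genes, at percentile 91.7. Both chains were thus higher beyond counting error and below the 2-fold size. A pseudogene of Krt8, Krt8-ps, carries 941 bases that are 98.6% identical to a Krt8 transcript and was not analysed here, so the placement of some Krt8 reads is uncertain.

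Krt7, a type II keratin of bile duct and other simple epithelia (ENSMUSG00000023039, chromosome 15 from 101411043 to 101430313), was read 3248 times in control and 1026 times in senescent cells. Its log2 ratio was -1.43 (-1.54 to -1.33), at percentile 6.23 of all genes tested, just inside the 1.5 size. With total-count scaling it was -1.54, past that size. Krt19, the type I keratin used with Krt7 to mark bile duct cells (ENSMUSG00000020911, chromosome 11 from 100140810 to 100148665), did not move with it. Its reads numbered 22885 and 19177 and its log2 ratio was -0.03 (-0.05 to 0.0023), so that Krt19 was the only 1 of the 9 whose counting interval held 0. With total-count scaling its ratio was -0.13.

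Epcam, an adhesion molecule of bile duct cells and liver progenitors (ENSMUSG00000045394, chromosome 17 from 87635979 to 87651129), was read 0 times in control and 1 time in senescent cells. Both counts lie under the floor of 3 reads that a count of 0 allows, equal to 0.103 and 0.121 CPM, so at this depth no difference could be detected. The reads of Krt7 and Krt19 were therefore measured in libraries that held almost no Epcam. Of 12 other bile duct and progenitor markers, 10 had at least 10 reads, and their summed level was 3615 (control) and 3049 (senescent) CPM. Of these, 1 rose and 3 fell past 2-fold, against 5.09% and 9.98% of all genes tested, and with total-count scaling 4 fell. Whether these cells have a part in the Krt7 and Krt19 ratios was not tested. Cftr, the chloride channel of bile duct cells, rose from 44 to 176 reads (2.20, interval 1.75 to 2.74). Onecut1, a factor of hepatic and biliary development, fell from 332 to 62 (-2.17, interval -2.61 to -1.80). Aqp1, a water channel, fell from 326 to 93 (-1.57, interval -1.93 to -1.24), and Spp1, osteopontin, from 25430 to 10580 (-1.04). Sox9, the bile duct and progenitor factor, had 3602 and 4454 reads (0.54, interval 0.47 to 0.60).

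Among the other 50 keratin genes, 23 had no read in either library and 10 had at least 10 reads. Of the 10, 4 were called higher and none lower, against 2.71% and 5.6% of all genes tested. Krt20, a type I keratin best known from intestinal and urothelial epithelium, had by far the most reads of these. It had 6933 and 20687 reads and rose 3.50-fold after scaling (log2 ratio 1.81, interval 1.77 to 1.85). Krt12, a type I keratin of the cornea, had few reads, 22 and 78, and rose 4.01-fold after scaling (log2 interval 1.36 to 2.81). The other 2 called higher were Krt6a, with 0 and 15 reads, and Krt78, with 0 and 18, and were named after their values were seen. Against the floor of 3 reads in the control library, they were at least 5.86-fold and at least 7.04-fold higher. Both reached 10 reads only through the senescent library, so the filter itself fixed their direction, and their calls give no weight to the count of 4. Krt10, a keratin of suprabasal epidermis, had 151 and 84 reads (-0.61, interval -1.02 to -0.22), and Krt80 had 297 and 250 (-0.02, interval -0.27 to 0.23). The Krt20 ratio was 3.50-fold while Krt19, another type I chain, was level, so the type I keratins differed among themselves.

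Per kilobase of annotated exon, the sum of all type II keratins was 2115 RPKM (CPM divided by exon length in kilobases) in control and 2990 in senescent cells, and Krt8 made up 99.1% and 99.7% of it. The sum of all type I keratins was 1521 in control and 2564 in senescent cells. Krt18 supplied 63.8% of the type I sum in control and 66.7% in senescent cells. Krt19 supplied 27.9% and 16.3%, and Krt20 supplied 8.14% and 16.9%. At the level of RNA, type II exceeded type I by 1.39 times in the control and by 1.17 times in the senescent library. Keratin genes took 0.691% of all control reads (Clopper-Pearson 95% interval 0.687 to 0.694) and 0.960% of senescent reads (0.956 to 0.964).

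**Figure D2:**
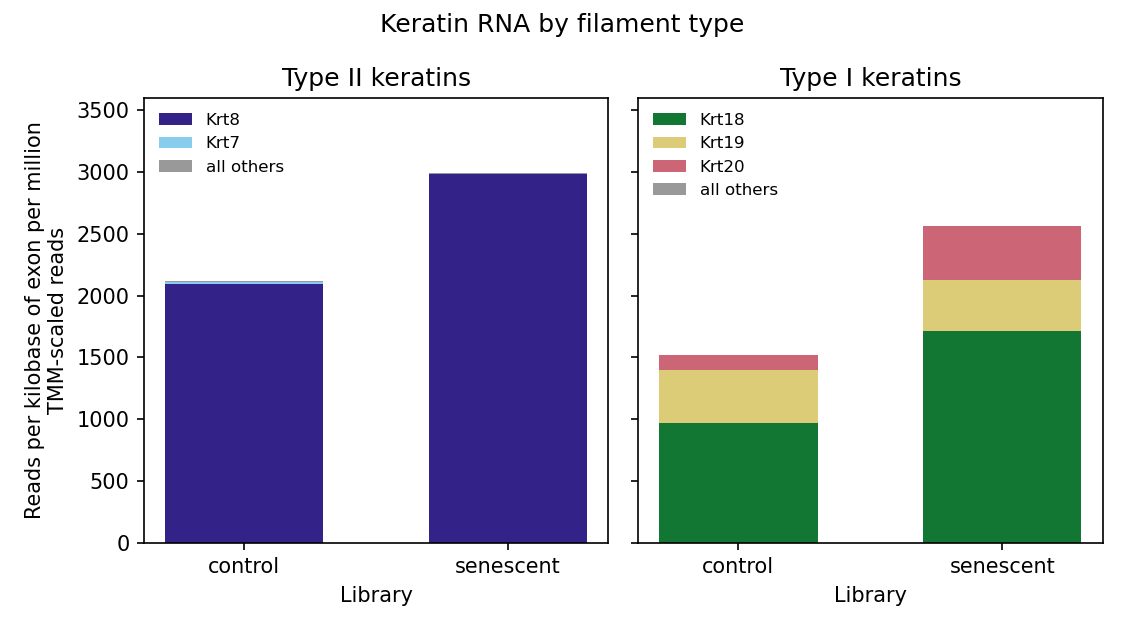
RPKM (CPM divided by exon length in kilobases) summed over type II keratins (left) and type I keratins (right) in each library, with the main genes stacked in colour. The type II sum is almost entirely Krt8 in both libraries, whereas Krt18 and Krt20 account for the taller type I bar of the senescent library and the Krt19 segment is nearly the same.

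Cdh1, the E-cadherin of epithelial adherens junctions (ENSMUSG00000000303, chromosome 8 from 106603351 to 106670246), was read 16760 times in control and 11203 times in senescent cells. Its log2 ratio was -0.35 (-0.39 to -0.32). Cdh2, the N-cadherin that hepatocytes also carry (ENSMUSG00000024304, chromosome 18 from 16588877 to 16809246), was read 4089 and 2866 times, with a log2 ratio of -0.28 (-0.35 to -0.21). Both cadherins were lower in senescent cells beyond counting error, at 1.28-fold for Cdh1 and 1.22-fold for Cdh2. There were 4.10 Cdh1 reads per Cdh2 read in control and 3.91 in senescent cells. The ratio between these values was 0.954 with an interval of 0.904 to 1.01, which held 1 and which no scaling of the libraries can alter.

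Of the 21 other cadherins, 11 had no read and 6 had at least 10 reads. Of the 6, 1 was called higher and 1 lower, against 2.71% and 5.6% of all genes tested. Cdh6, a cadherin of kidney and other epithelia, had 7969 and 6309 reads (-0.11, interval -0.16 to -0.06). Cdh17, the liver-intestine cadherin, had 5084 and 5514 (0.35, interval 0.29 to 0.40). Cdh13, T-cadherin, had 463 and 317 (-0.32, interval -0.53 to -0.11), and Cdh24 had 103 and 75 (-0.23, interval -0.68 to 0.22). Cdh16, the kidney-specific cadherin, had 754 and 67 reads, fell 9.48-fold after scaling (log2 ratio -3.25, interval -3.65 to -2.90) and was the only cadherin called lower. The only cadherin called higher, Cdh9, had 2 and 9 reads, at least 3.52-fold higher against the floor, and was named after its values were seen. Without its senescent reads Cdh9 would not have reached 10 reads. The filter thus favoured that direction, and the call gives no weight to the count of 1. The cadherins with the most reads, Cdh1, Cdh6, Cdh17 and Cdh2, thus all lay within the 2-fold size.

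The partners of the cadherins were read from 15 genes of the adherens junction, of which 14 were matched and 11 had at least 10 reads. The median log2 ratio was 0.22, with 1 gene 2-fold higher and 2 lower, against 5.09% and 9.98% of all genes tested. The median was 0.09 over genes with at least 100 reads and 0.11 with total-count scaling. Ctnnb1, β-catenin, had 50660 and 50807 reads (0.23, interval 0.22 to 0.25), and Ctnna1, α-catenin, had 14513 and 21220 (0.78, interval 0.75 to 0.81). Nectin2, a nectin adhesion receptor, fell from 1859 to 556 reads (-1.51, interval -1.65 to -1.37), and Nectin1 fell from 644 to 255 (-1.10, interval -1.32 to -0.90). The remaining catenins, Ctnnd1 and Jup, were both at -0.03. The 2-fold higher gene, Nectin4, had only 6 and 15 reads (1.40, interval 0.10 to 3.20) and was named after its values were seen. Nectin4 reached 10 reads only through the senescent library. With total-count scaling its call was lost, since its interval then held 0.

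Keratin filaments are anchored at desmosomes and tied to other structures by plakins. Of 17 such genes, 13 had at least 10 reads, and 12 of the 13 had a log2 ratio above 0, compared with 48.9% of all genes tested. The median was 0.60, with 5 genes 2-fold higher and none 2-fold lower, against 5.09% and 9.98% of all genes tested. With total-count scaling, 11 of the 13 were above 0, 4 were 2-fold higher and the median was 0.49. Of the 5, Dsg3 (5 and 15 reads) and Evpl (15 and 28 reads) had few reads and were named after their values were seen. Dsg3 reached 10 reads only through the senescent library. Plec, plectin, which links keratin and vimentin filaments to junctions and to actin, had 13307 and 25955 reads and rose 2.29-fold after scaling (log2 ratio 1.19, interval 1.16 to 1.22). Of the desmosomal plakophilins, Pkp1 rose from 31 to 121 (2.16, interval 1.62 to 2.81) and Pkp3 rose from 25 to 89 (2.02, interval 1.41 to 2.76), whereas Pkp2 had 1264 and 969 reads (-0.15). Ppl, periplakin, had 7804 and 10056 (0.60, interval 0.55 to 0.64). The central desmosome genes lay closer to 0, at 0.32 (0.26 to 0.37) for Dsp, desmoplakin, and 0.24 (0.20 to 0.29) for Dsg2, desmoglein 2.

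Vim, the type III filament protein of mesenchymal and many cultured cells (ENSMUSG00000026728, chromosome 2 from 13573927 to 13582826), was read 19877 times in control and 26489 times in senescent cells. Its log2 ratio was 0.64 (0.62 to 0.67), at percentile 87.5 of all genes tested. Vim was thus present in both libraries, and its ratio lay between those of Krt8 and Krt18. Vim reads per Krt8 read went from 0.166 to 0.183, a ratio of 1.10 (1.08 to 1.12), whereas Vim per Krt18 went from 0.491 to 0.435, a ratio of 0.886 (0.866 to 0.906). Markers of fibroblasts and stellate cells were at or near 0: the 12 genes had 27 control and 22 senescent reads in all, and Col1a2, Col3a1, Lum, Thy1 and Acta2 had 0 in both libraries. Of the 2 with at least 10 reads, Col1a1 had 21 and 1 and Reln had 0 and 12, and they were named after their values were seen.

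Among 18 further genes of the mesenchymal state, 12 had at least 10 reads. Of these, 5 were 2-fold lower and none was 2-fold higher, against 9.98% and 5.09% of all genes tested. Their median log2 ratio was -0.36, and it was -0.17 over genes with at least 100 reads. Fn1, fibronectin, which hepatocytes also secrete, fell from 29310 to 10127 reads (-1.30, interval -1.34 to -1.27). Sparc, a matricellular protein, fell from 6357 to 1712 (-1.66, interval -1.74 to -1.59), and Loxl2, a lysyl oxidase, from 1084 to 424 (-1.12, interval -1.29 to -0.96). Axl, a receptor tyrosine kinase, had 20268 and 14296 (-0.27, interval -0.31 to -0.24). The other 2 genes past 2-fold had few reads, Postn with 47 and 7 and Cnn1 with 18 and 1, and were named after their values were seen. Both reached 10 reads only through the control library. Of the 12, 9 lay below 0, with Vim itself above it.

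Snai2, which encodes the repressor Slug (ENSMUSG00000022676, chromosome 16 from 14705852 to 14709385), was read 629 times in control and 378 times in senescent cells (log2 ratio -0.50, interval -0.69 to -0.32). Zeb1, a repressor of Cdh1 in other epithelia (ENSMUSG00000024238, chromosome 18 from 5591860 to 5775467), was read 1184 and 1294 times (log2 ratio 0.36, interval 0.24 to 0.47). The 2 repressors lay on opposite sides of 0. The number of Snai2 reads per Zeb1 read went from 0.531 to 0.292, a ratio of 0.550 (0.472 to 0.641). An antisense transcript, Gm10125, shares 198 exon bases with Zeb1 and had 2 and 5 reads, and the Zeb1 ratio was 0.36 with them added.

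Of 17 further factors of the transition and their ID antagonists, 12 had at least 10 reads. Of these, 3 were 2-fold lower and none was 2-fold higher, against 9.98% and 5.09% of all genes tested. Tcf3, the E protein with the most reads among the E-box factors, had 3745 and 3353 (0.07, interval 0.0024 to 0.14), Twist2 had 334 and 361 (0.34, interval 0.12 to 0.56) and Zeb2 had 149 and 139 (0.13, interval -0.21 to 0.47). Id3 and Id1 encode inhibitors of E-box binding. Id3 fell from 569 to 50 (-3.26, interval -3.73 to -2.86), Id1 fell from 2424 to 674 (-1.62, interval -1.74 to -1.49), and Id2, of the same family, had 9874 and 4843 reads (-0.80, interval -0.85 to -0.75). Sox4, a SOX factor, had 18230 and 11752 (-0.40, interval -0.44 to -0.37). The other gene past 2-fold, Klf8, had only 35 and 13 reads and was named after its values were seen.

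Genes that maintain the epithelial state were read from 17 regulators, of which 10 had at least 10 reads. Of these, 1 was 2-fold higher and 4 were 2-fold lower, against 5.09% and 9.98% of all genes tested. The median log2 ratio of the 10 was -0.08, and that of all genes tested was -0.02. Of the epithelial ETS factors, Ehf fell from 1670 to 240 (-2.56, interval -2.77 to -2.37) and Elf3 fell from 876 to 291 (-1.36, interval -1.56 to -1.17). Foxa3 and Foxa1, forkhead factors of the liver, fell from 799 to 120 (-2.50, interval -2.79 to -2.23) and from 276 to 61 (-1.93, interval -2.37 to -1.54). Foxa2, of the same family, had 2032 and 1832 reads (0.08, interval -0.01 to 0.17) and was named after its values were seen. Klf5, a factor of proliferating epithelia, rose from 918 to 1632 (1.06, interval 0.94 to 1.18), but did not pass 2-fold with total-count scaling. Among 15 epithelial surface proteins and proteases, 12 had at least 10 reads, with a median of -0.29. None was 2-fold higher and 1 was 2-fold lower, against 5.09% and 9.98% of all genes tested. The lower gene, Cdhr5, had only 21 and 4 reads and was named after its values were seen. Cdhr5 reached 10 reads only through the control library. Of the 12, Cd24a had the most reads, 27171 and 19186 (-0.27, interval -0.30 to -0.25). It was followed by Lsr, the lipolysis-stimulated receptor of tricellular junctions, with 8797 and 8946 (0.25, interval 0.21 to 0.30).

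**Figure D3:**
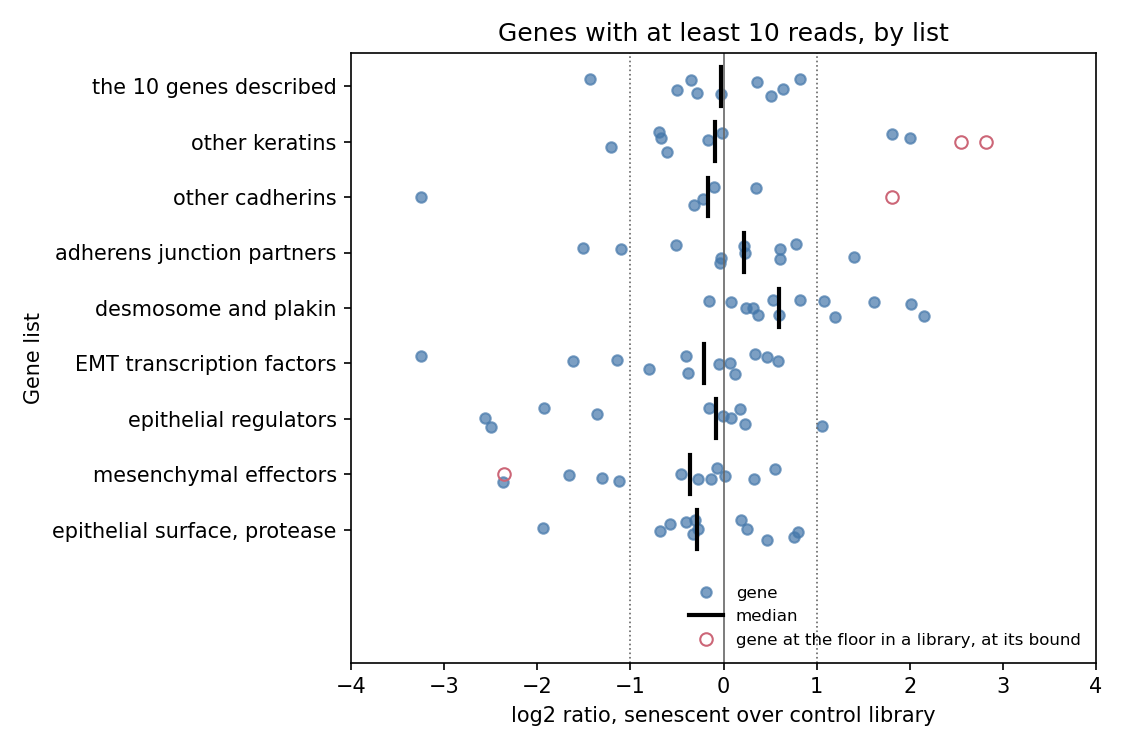
Log2 ratios of senescent over control for genes with at least 10 reads, 1 point per gene and 1 row per list, with the median as a black bar and dotted lines at the 2-fold size. Genes at or under 3 reads in a library are open circles at their bound, and 12 of the 13 desmosome and plakin genes lie to the right of 0 while the 9 genes of the top row centre on -0.03.

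Counting error was small for these genes, and the spread between cultures was not measured. Of the 9 genes, 8 had a counting interval without 0, as did 68.6% of all genes tested. When a coefficient of variation of 0.1 between cultures was assumed, the intervals of Krt7, Krt8, Krt18, Vim and Snai2 left out 0 and those of Cdh1, Cdh2, Krt19 and Zeb1 held it, and 38.6% of all genes tested left out 0. At an assumed 0.4, none of the 9 left out 0, and 5.66% of all genes did. Krt7 had an interval of -1.85 to -1.02 at the smaller assumption and -3.03 to 0.17 at the larger.

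**Figure D4:**
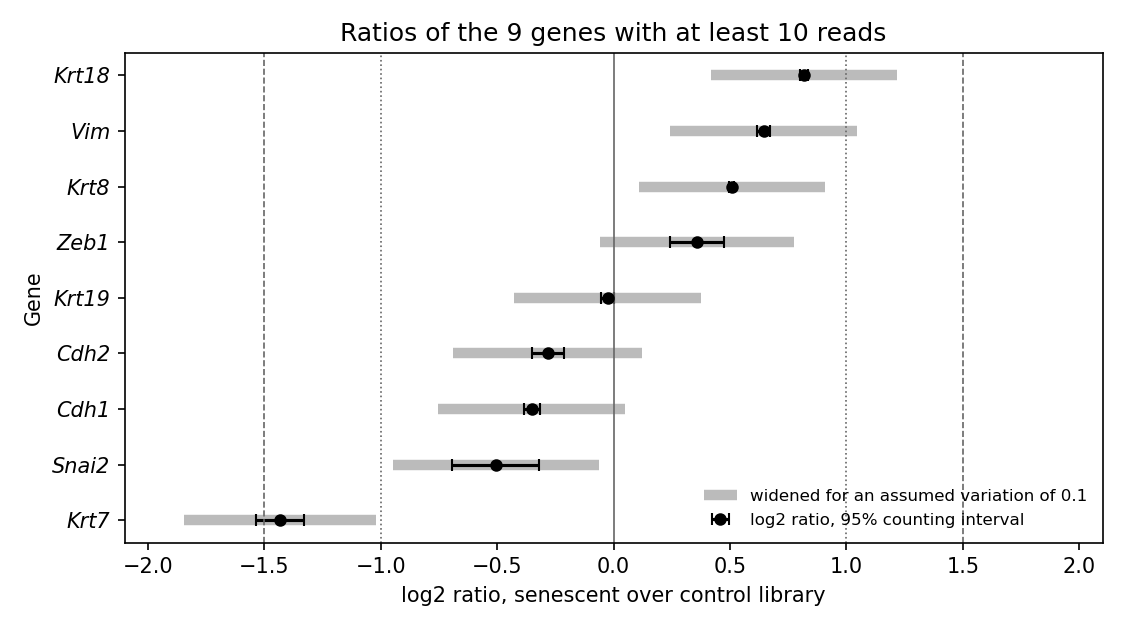
Log2 ratio of senescent over control for each of the 9 genes (points), with the 95% counting interval as black bars and the interval widened for an assumed coefficient of variation of 0.1 in grey. Dotted lines mark a size of 1 and dashed lines a size of 1.5, and Krt7 alone lies past a dotted line.

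Ratios between genes of the same library do not depend on scaling. Krt7 per Krt8, the pair of type II chains, went from 0.0272 to 0.00709, a 3.84-fold drop (interval 3.58 to 4.12). Krt19 per Krt18, the pair of type I chains, went from 0.565 to 0.315, which is 1.80-fold lower (1.75 to 1.84). Krt8 per Krt18 went from 2.95 to 2.38, and Krt7 per Krt19 from 0.142 to 0.0535. The bile duct chain was thus lower relative to the hepatocyte chain in both filament types, but only Krt7 was itself lower (-1.43). Krt19 was level (-0.03), and its ratio to Krt18 was lower because Krt18 was higher (0.82). Of the 8 pairs that gave an interval, only Cdh1 per Cdh2 held 1.

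**Figure D5:**
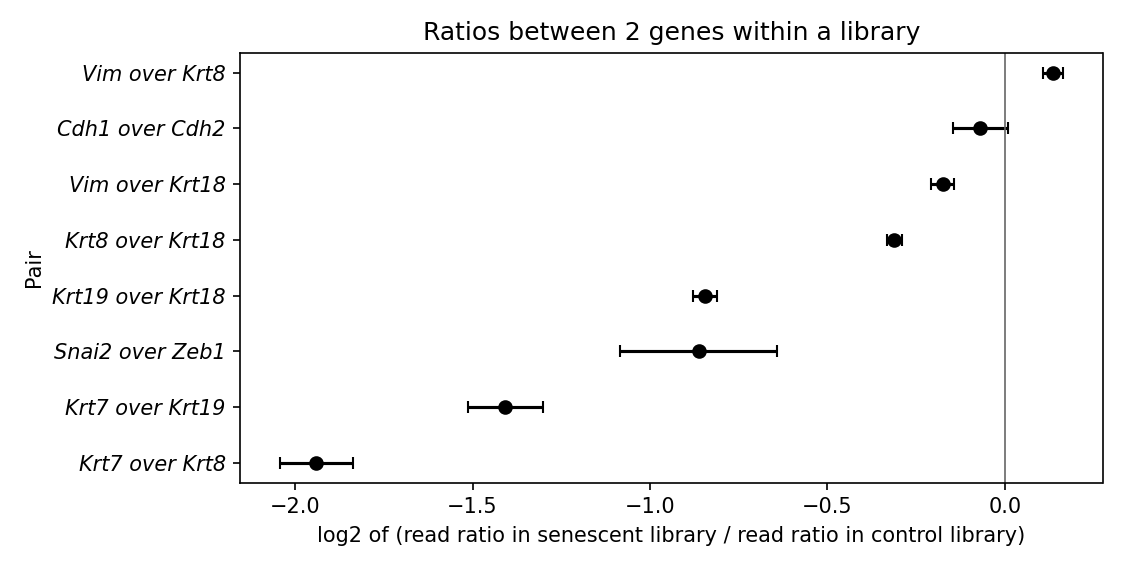
For each pair, the log2 of the read ratio in the senescent library over that in the control library (points) with the 95% interval from counting error (bars), and a line at 0 for no change. Krt7 over Krt8 lies farthest left, Vim over Krt8 is the only pair to the right of the line, and the Cdh1 over Cdh2 interval crosses it.

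Levels per kilobase of annotated exon placed Krt8 first (2097 and 2981 RPKM in control and senescent cells), then Krt18 (969 and 1710), Krt19 (424 and 417), Vim (144 and 225), Cdh1 (126 and 98.8) and Cdh2 (17.4 and 14.3). Krt7 (15.8) stood above Snai2 (10.7) in the control and below it in the senescent library (5.87 and 7.54), and Zeb1 was lowest of the 9 (3.97 and 5.08). The order among close genes depends on the length used. With the length of the principal transcript, chosen after the data were seen, Vim was 312 and 487 and Krt19 was 499 and 491, so that they were close in the senescent library, and Krt7 (27.3 and 10.1) stood above Snai2 in both.

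Marker genes of liver cell types were also read. Of 12 hepatocyte markers, 11 were matched and 10 had at least 10 reads. Of these, 5 lay above 0 and 5 below. Past 2-fold, 1 was higher and 4 were lower, against 5.09% and 9.98% of all genes tested. The hepatocyte markers summed to 3030 (control) and 1882 (senescent) CPM, to which Alb contributed 1103 and 118 and Ttr, transthyretin, 796 and 423. Bile duct and progenitor markers summed to 3615 and 3049 CPM, so the sums do not assign the line to a cell type. Some hepatocyte markers were low: Asgr1 had 2 and 1 reads, Tat 15 and 17, Cps1 19 and 55 and Afp 75 and 65. These 4 were named after their values were seen. Of them, Cps1, a urea cycle enzyme, was the 1 gene past 2-fold higher (1.71, interval 0.99 to 2.60). Albumin (Alb) fell from 32076 to 2917 reads (-3.23) and apolipoprotein A1 (Apoa1) from 2026 to 197 (-3.13). Serpina1a, an alpha-1-antitrypsin gene, fell from 102 to 32 (-1.42) and Ass1, a urea cycle enzyme, from 316 to 106 (-1.34), while Apob had 22158 and 25094 (0.41) and the hepatocyte factor Hnf4a had 8187 and 7705 (0.14). Of 10 macrophage markers, Adgre1, Clec4f and Marco had 0 reads in both libraries, and the summed level, 194 and 82.2 CPM, was almost all Cd14, which had 5551 and 1879 reads, while Ptprc, the leukocyte antigen CD45, had 27 and 76. The 10 endothelial markers had 57 and 62 reads in all, with Tie1 and Erg at 0 in both libraries. The part of these markers in the keratin ratios was not tested.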

How the data were processed

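RNAseq was measured in control and senescent AML12 cells, with 1 library per group. The authors deposited whole-number counts of reads per gene, not normalized, under Ensembl identifiers. The submitters' processing notes name CASAVA, STAR, DESeq2, edgeR and the build mm10 with no role or order, and the counting tool, annotation and use of strand are not given in the sources used here, so overlapping or near-identical genes could share reads. Columns were matched to groups by the initials of the sample titles. Symbols and positions are from GENCODE M21 on GRCm38, which named 34490 of 35275 genes.

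Counts were scaled by TMM (edgeR 4.0.16, R 4.3.3), giving factors of 1.04 (control) and 0.964 (senescent). Log2 ratios used a prior count of 1. Intervals are Clopper-Pearson for a ratio, Poisson for a level and exact conditional for a ratio of 2 genes, all at 95% and for counting error only, since no molecular identifiers were used and reads may repeat a molecule. Python 3.11.15, scipy 1.17.1 and blastn 2.17.0 (at least 95% identity over 100 bases) were used. The rule was tried on simulated data whose planted changes were larger than the ratio of any member. Recovery of changes of the sizes seen in the members was not tested. With 1 library per group, edgeR's quasi-likelihood test and DESeq2's test could not be fitted.

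The members and lists were chosen with earlier results of these data known. All 10 members were named, with other keratins and cadherins of at least 100 reads. From other lists, up to 4 genes past 2-fold in each direction with at least 100 reads were named, and otherwise those with the most reads. Further genes, among them Sox9, Hnf4a, Dsp, Dsg2, Pkp2, Ttr, Ctnnd1, Jup, Tcf3, Twist2, Zeb2, Lmnb2, Des, the marker genes at 0 and the neighbours of Krt8, were named after their values were seen. Alternatives were other scalings, filters, prior counts, a larger size, assumed coefficients of variation, and added reads of antisense genes. Protein sequences were not used here.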

Additional observations from a re-analysis of the deposited data

How the results depend on the processing

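Among the 10 genes, the counts called higher at 1.5 and at 2-fold were 0 under all 11 alternatives. A larger size, a stricter filter and wider intervals can only remove calls, so they could not raise these counts. The count called lower at 1.5 went from 0 to 1 (Krt7, at -1.54) with total-count scaling, under which the median over all genes tested shifted by -0.11 on the log2 scale. The count past 2-fold lower went from 1 to 0 with an assumed coefficient of variation of 0.4, which widens the interval by construction. The filters, the larger size and the assumed coefficients of variation leave each log2 ratio unchanged by construction. Under the other scalings, prior counts and added antisense reads, no log2 ratio of the 9 tested genes changed sign. Total-count scaling took 7 of the 9 ratios outside their counting interval, upper-quartile scaling took 5 (a shift of -0.04), and the other alternatives took none. With at least 100 reads in place of 10, the median of the other keratins went from -0.09 to 0.89, because fewer genes were tested, that of mesenchymal genes from -0.36 to -0.17, that of adherens junction partners from 0.22 to 0.09 and that of desmosome and plakin genes from 0.60 to 0.53. No paired analysis was possible because each group had 1 library. With 1 library per group, no replicate could be left out. Depth limits only Epcam among the members.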

Other observations

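Beyond keratins and Vim, 17 genes of other intermediate filaments and nuclear lamins were read, of which 9 had at least 10 reads. Lmna, which encodes lamins A and C, was read 10942 times in control and 15505 times in senescent cells (log2 ratio 0.73, interval 0.70 to 0.77). Lmnb1 and Lmnb2, the B-type lamins, had 2249 and 1556 reads (-0.30) and 1678 and 1256 reads (-0.19). Des, the muscle and stellate cell filament, had 6 and 1 reads.

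Krt8 and Krt18 lie 23697 bases apart on chromosome 15, on opposite strands. Within 300 kb on each side of Krt8 there were 24 other genes in the table, and 12 of them had at least 10 reads, with a median log2 ratio of -0.04. That median counts Krt78, which had 0 and 18 reads and was at least 7.04-fold higher, above the ratio of Krt18. Apart from Krt78, set aside after its value was seen, the 12 ranged from -0.52 for Csad to 0.67 for Mfsd5. The ratio of Krt18 lay above that narrower range and that of Krt8 within it. Eif4b, the expressed gene closest to Krt18 after Krt8, had 23283 and 24859 reads (0.32).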
